A study of Mus musculus with 16 samples.

Results

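The immunity-related GTPases of the mouse were followed across all conditions of an RNA-seq study of bone marrow derived macrophages (BMDMs). The genes were taken by symbol from the deposited gene table, and all 7 that were looked for, Irgm1, Irgm2, Igtp, Iigp1, Ifi47, Tgtp1 and Tgtp2, were present among its 22287 genes. Bone marrow of C57BL/6J mice, aged 8 weeks and with no other allele labelled, was cultured for 7 days with GM-CSF (GM) or M-CSF (M) on tissue culture treated (TC) or untreated (noTC) dishes. The cells then received vehicle, called steady state, or lipopolysaccharide (LPS), an agonist of TLR4, for 3 h. This gave 8 groups of 2 libraries, GM-TC, GM-noTC, M-TC, M-noTC and the same 4 with LPS, or 16 libraries in all. Each library was made from polyadenylated RNA of a whole culture, so fewer cells of a type and less RNA per cell cannot be told apart. The sources used here do not say whether libraries with the same replicate number shared a mouse, and p-values measure the spread between these libraries.

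Immunity-related GTPases are large GTP-binding proteins that interferons induce in mouse cells. Irgm1, Irgm2 and Igtp (Irgm3) belong to the regulatory branch, which sits on the membranes of the cell and keeps the other branch inactive there. Iigp1 (Irga6), Ifi47 (Irgd), Tgtp1 and Tgtp2 (Irgb6) belong to the effector branch, which coats the vacuole around intracellular pathogens such as Toxoplasma and takes part in its rupture. In macrophages, LPS leads through TLR4, TRIF and IRF3 to interferon beta, which signals through STAT2 and IRF9 among others. IRF1, another inducible factor, acts at the same kind of promoter.

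All of the genes but Iigp1 lie on chromosome 11 in the GENCODE M21 annotation of GRCm38, in 2 clusters. Igtp and Irgm2 are neighbours on the plus strand and overlap, and Irgm1, Tgtp1, Tgtp2 and Ifi47 lie in the other cluster. RefSeq promoters (GRCm38.p6, 250 bases before and 50 after the start) were at hand for 6 of the 7 genes, all but Iigp1. They were searched on both strands for TTCNNNGAA, the core of a gamma-activated site, and for 2 GAAA runs with any 2 bases between them, the core of an interferon-stimulated response element (ISRE). Igtp, Irgm2, Tgtp1 and Tgtp2 held both, Irgm1 held the second one only, and Ifi47 held neither in this window. Among all 32851 promoters of this length, 8.3% held TTCNNNGAA, 3.44% held the ISRE core and 0.454% held both.

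In the 4 promoters with both motifs, the ISRE core stood on the strand of the gene, while TTCNNNGAA reads the same on both strands. The 2 matches stood in the same order and 2 bases apart, and the 8 bases before the first match (ctagccat) were identical. They are shown with up to 15 bases on either side, 5′ to 3′ on the strand of the gene and with the matches in capitals, because the 4 genes have this arrangement in common. A related GTPase gene outside the 7, Gm12185, held the same arrangement after the same 8 bases, and another, Gm12250, held both motifs in a different arrangement. The first match began 45 bases before the start of Igtp, 75 before Irgm2, 88 before Tgtp1 and 81 before Tgtp2. In Irgm1, 2 overlapping matches of the ISRE core began 30 and 24 bases before the start. A match is a run of letters and no evidence of binding.
Igtp chr11:58199496-58199546 (+): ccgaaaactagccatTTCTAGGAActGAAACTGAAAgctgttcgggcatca
Irgm2 chr11:58214887-58214937 (+): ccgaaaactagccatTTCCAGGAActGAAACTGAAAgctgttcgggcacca
Tgtp1 chr11:48992299-48992349 (-): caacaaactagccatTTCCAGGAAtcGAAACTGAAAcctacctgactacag
Tgtp2 chr11:49064258-49064308 (-): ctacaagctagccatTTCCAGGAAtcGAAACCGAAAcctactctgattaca
Irgm1 chr11:48871421-48871465 (-): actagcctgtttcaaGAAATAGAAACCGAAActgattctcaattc

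The whole 250 bases before the start are shown for one gene of each kind, Igtp with both motifs, Irgm1 with the second only and Ifi47 with neither, again on the strand of the gene and with matches in capitals.
Igtp chr11:58199306-58199555 (+): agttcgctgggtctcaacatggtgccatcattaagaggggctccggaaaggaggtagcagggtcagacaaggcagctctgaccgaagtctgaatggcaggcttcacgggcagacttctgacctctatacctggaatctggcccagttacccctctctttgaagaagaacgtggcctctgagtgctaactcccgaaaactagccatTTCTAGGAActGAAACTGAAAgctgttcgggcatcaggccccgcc
Irgm1 chr11:48871421-48871670 (-): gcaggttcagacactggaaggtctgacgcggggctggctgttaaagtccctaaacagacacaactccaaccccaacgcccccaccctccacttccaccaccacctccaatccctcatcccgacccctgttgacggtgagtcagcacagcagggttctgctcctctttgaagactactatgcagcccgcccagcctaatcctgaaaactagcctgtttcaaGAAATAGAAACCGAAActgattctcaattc
Ifi47 chr11:49076337-49076586 (+): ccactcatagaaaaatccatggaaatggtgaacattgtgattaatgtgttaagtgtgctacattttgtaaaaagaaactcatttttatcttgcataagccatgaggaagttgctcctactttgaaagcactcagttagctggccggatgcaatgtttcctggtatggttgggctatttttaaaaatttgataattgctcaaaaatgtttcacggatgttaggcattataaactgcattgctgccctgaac

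Total counts per library lay between 17527802 and 31458363, and 3 counts corresponded to between 0.0954 and 0.171 in counts-per-million units (CPM), a floor that covers counting error only. Levels below are CPM scaled with the TMM factors of edgeR (0.778 to 1.39). All 8 macrophage markers, among them Adgre1, Csf1r and Lyz2, were found in every library. The summed level of 11 heart muscle genes ranged from 24.6 to 65.7 CPM in 4 libraries, GM-TC and M-TC, and did not exceed 1.67 CPM in the other 12, so these 4 stand apart. The 9 T and NK cell markers summed to 1.18 to 2.79 CPM, with Cd4 and Klrb1c detected in every library (at most 2.21 and 1.59 CPM) and Cd3e and Ncr1 without a count. Ifng, the gene of interferon gamma, had 3 counts in 1 library with LPS and none in the other 15.

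All 7 genes were lowest in GM-CSF cultures at steady state and highest in M-CSF cultures with LPS, with the steady state M-CSF groups and the GM-CSF groups with LPS in between. Irgm1, the regulator that is also needed for autophagy and for survival of stem cells under interferon, was at 46.5 and 51.7 CPM in the GM-TC libraries and at 48.8 and 47.3 in those of GM-noTC, against 142 and 141 for M-TC and 148 and 149 for M-noTC. With LPS it was at 800.3 and 841 CPM (GM-TC), 793 and 791 (GM-noTC), 1642 and 1696 (M-TC) and 1479 and 1527 (M-noTC); values below follow this order of replicates 1 and 2. Apart from the 2 GM groups at steady state, no neighbouring groups in this order overlapped. Irgm2 was lower than Irgm1 in each group, also per kilobase of exon, and, unlike it, higher in M-TC (72.5 and 76.0 CPM) than in M-noTC (65.4 and 66.4). It ranged from 20.4 ± 0.08 CPM in GM-TC (SD, n = 2) to 808 and 794 in the libraries of M-TC-LPS. Igtp ranged from 9.03 ± 0.49 CPM in GM-TC to 605 ± 2.92 in M-TC-LPS.

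Among the effectors, Ifi47 was as high as the regulators and Iigp1 and Tgtp1 were near the floor of detection in GM-TC. Ifi47 was at 18.4 and 20.8 CPM in the GM-TC libraries against 65.1 and 66.4 for M-TC, and LPS brought these to 425 and 467 and to 897 and 962. Iigp1 was at 0.30 and 0.32 CPM for GM-TC and 1.30 and 1.07 for GM-noTC, and at 5.30 and 6.81 for M-TC and 2.80 and 3.79 for M-noTC. With LPS it reached 61.0 and 73.2 CPM on TC and 62.9 and 63.6 on noTC dishes in GM cells, and 361 and 436 on TC and 403 and 404 on noTC dishes in M cells. The dishes overlapped for Iigp1 with LPS and did not overlap at steady state, in either growth factor.

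Tgtp2 was at 1.31 and 1.57 CPM for GM-TC and 2.69 and 2.99 for GM-noTC, and at 21.3 and 22.0 for M-TC and 24.2 and 23.7 for M-noTC. With LPS, GM cells held 135 and 152 CPM on TC and 136 and 135 on noTC dishes, and M cells 448 and 469 on TC and 473 and 479 on noTC dishes. Tgtp1 was listed with 4 counts in 1 GM-TC library and none in the other, stayed at or below 0.94 CPM in the other steady state libraries, and reached 78.4 CPM in M-noTC-LPS. Every LPS library was above every steady state library for each of the 7 genes. The share of all genes that separated in this way was not counted.

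**Figure D1:**
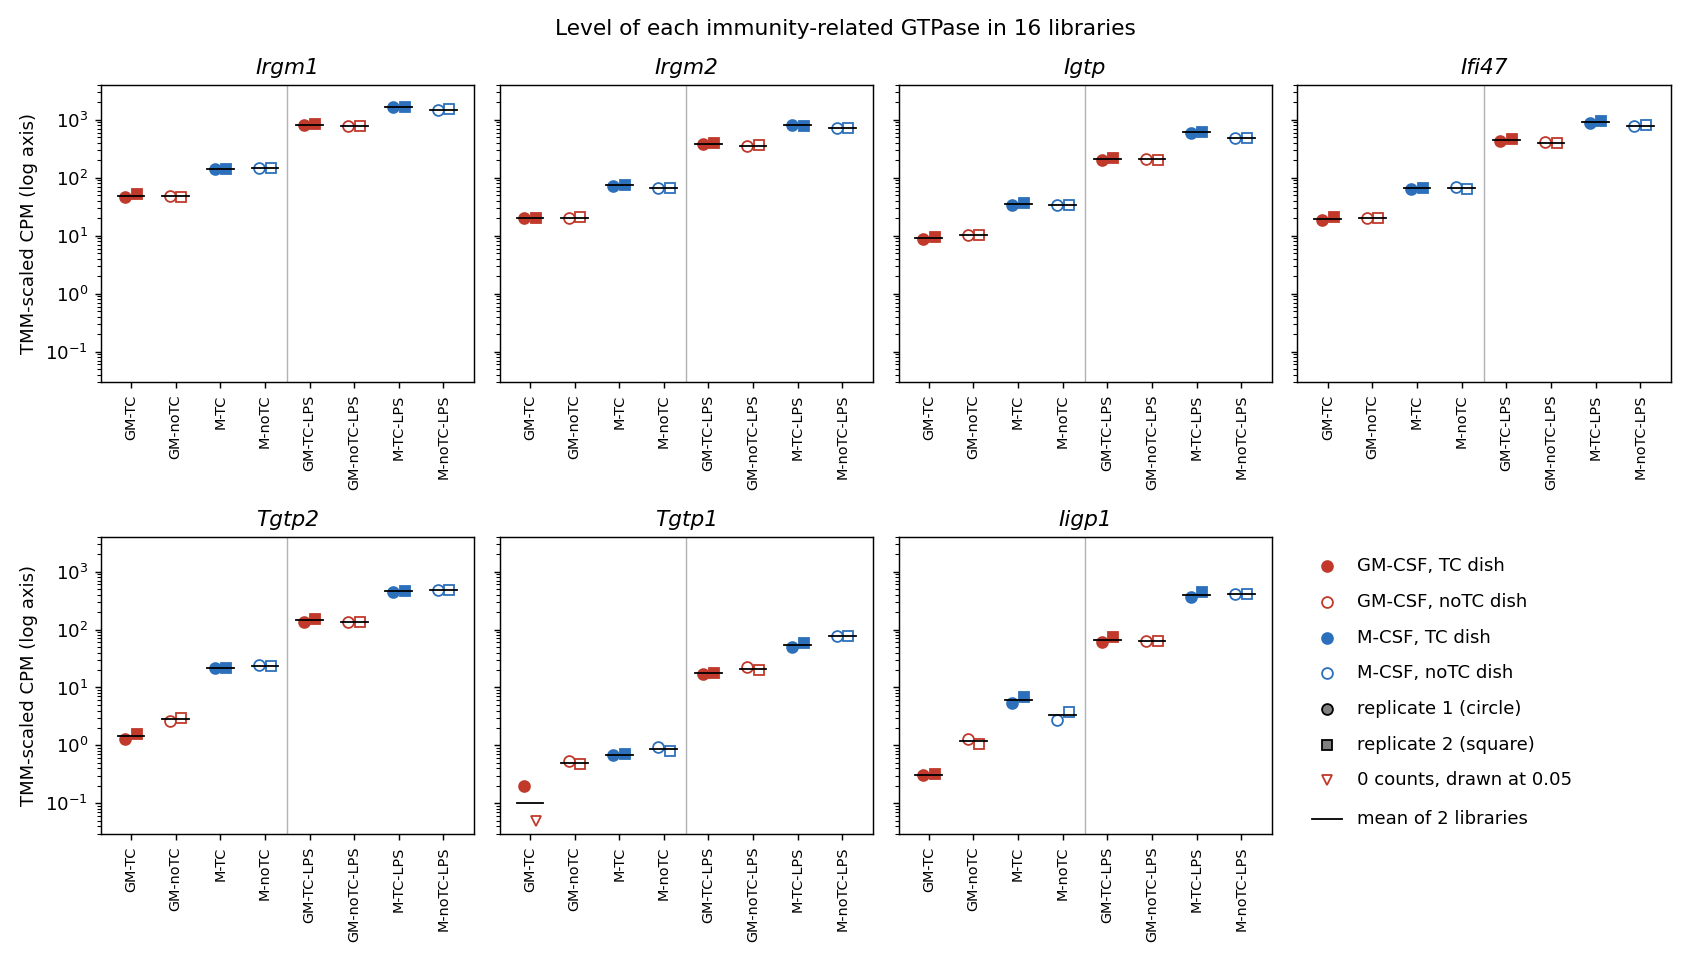
TMM-scaled CPM on a log axis for each gene in 16 libraries, with steady state groups left of the grey line and LPS groups right of it; circles and squares are replicates 1 and 2 and the bar is their mean. In each panel the 4 LPS groups lie above the 4 steady state groups, and within each state the M-CSF groups lie above the GM-CSF groups, closest for Tgtp1 at steady state.

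Tgtp1 and Tgtp2 are near-identical copies, and 79.4% of the 50-base stretches of Tgtp1 transcripts in GENCODE M21 also occur in Tgtp2, as do 85.8% of those of Tgtp2 in Tgtp1. The authors' counting splits shared reads between such copies by estimation, so each of the pair is uncertain on its own and their sum is given beside them. Tgtp1 made up 10.6% to 14.0% of the summed pair in the LPS groups and 3.10% and 3.49% in M-TC and M-noTC (group means). At the low levels of the other 2 groups it was 15.1% in GM-noTC and 6.67% in GM-TC, the latter from 4 counts. For the other genes, stretches found in no other listed GTPase made up 88.2% of Igtp, 93.2% of Irgm2 and at least 98.5% of Irgm1, Iigp1 and Ifi47. In the annotation Olfr56 and Gm12188 share exons with Ifi47, Gm12185 with Tgtp1 and Igtp with Irgm2, so reads cannot be assigned to one gene there. The kit does not mark strand, and Igtp and Irgm2 lie on the same strand, as do Gm12185 and Tgtp1.

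Per kilobase of exon, Ifi47 or Irgm1 was the highest of the 7 in each group and Tgtp1 the lowest, below Iigp1. In M-TC-LPS, Ifi47 was at 376 ± 18.6 CPM per kb (SD, n = 2), Igtp at 299 ± 1.45, Irgm1 at 287 ± 6.55 and Irgm2 at 217 ± 2.70. Tgtp2 followed at 156 ± 5.19 CPM per kb, Iigp1 at 68.4 ± 9.18 and Tgtp1 at 17.0 ± 2.12. In GM-TC, Irgm1 was at 8.46 ± 0.63 CPM per kb and Ifi47 at 7.93 ± 0.68, within each other's spread. The summed level of the 7 genes was 100.1 ± 5.99 CPM for GM-TC and 345 ± 6.71 for M-TC, and with LPS 2092 ± 102 and 4915 ± 153.

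LPS against vehicle asks how the genes respond to TLR4 in each culture. All 7 rose in each of the 4 comparisons (edgeR's quasi-likelihood test with Benjamini-Hochberg adjustment over 12514 genes, the highest adjusted p being 9.06e-16). Among all genes tested, 32.8% rose on TC and 33.6% on noTC dishes in GM cells, and 37.6% on TC and 36.4% on noTC dishes in M cells; 13.4%, 13.1%, 17.3% and 15.9% rose more than 2-fold. The 7 genes rose at least 10.1-fold, and the median over them, as log2, was 4.56 for GM-TC, 4.33 for GM-noTC, 4.10 for M-TC and 3.85 for M-noTC, beside medians over all genes between -0.05 and -0.01. Scaling by library size alone moved the median of all genes to between -0.83 and -0.53 and left the lowest of the 7 at 2.60.

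The regulators rose within a narrow range and the effectors within a wide one. In GM-TC the log2 fold change was 4.06 ± 0.06 for Irgm1 (SE), 4.23 ± 0.06 for Irgm2 and 4.56 ± 0.07 for Igtp, or 16.7-fold to 23.5-fold. Ifi47 lay with them at 4.50 ± 0.07. Tgtp2 rose 98.4-fold, with a log2 fold change of 6.62 ± 0.10, and Iigp1 rose by 7.72 ± 0.21. The fold of Iigp1 rests on 14 counts in the 2 GM-TC libraries, and the ratio of summed counts was 215 (95% exact interval 128 to 394). That of Tgtp1 rests on 4 counts, with a ratio of 195 (75.9 to 718); these intervals cover counting error only.

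In M-CSF cultures Irgm1, Irgm2 and Ifi47 again rose least. In M-TC, Irgm2 rose by 3.43 ± 0.05 on the log2 scale, Irgm1 by 3.56 ± 0.05, Ifi47 by 3.82 ± 0.06, Igtp by 4.10 ± 0.06 and Tgtp2 by 4.40 ± 0.07. Iigp1 rose by 6.03 ± 0.12 in M-TC and by 6.90 ± 0.12 in M-noTC, that is 65.5-fold and 120-fold. Tgtp1 and Tgtp2 summed rose by 6.70 ± 0.10 on TC and 5.55 ± 0.09 on noTC dishes in GM cells, and by 4.52 ± 0.07 and 4.48 ± 0.06 in M cells.

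**Figure D2:**
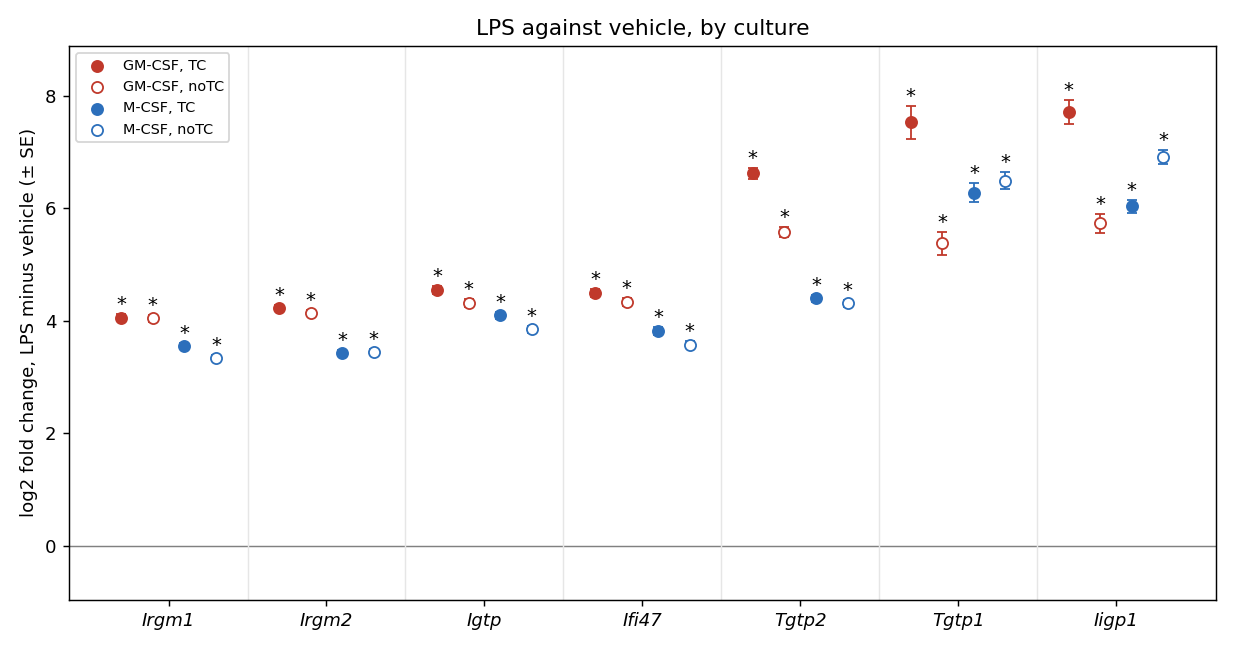
Log2 fold change of LPS against vehicle with its standard error for each gene in the 4 cultures (2 libraries per group); an asterisk marks an adjusted p under 0.05. All 28 values pass, Irgm1, Irgm2, Igtp and Ifi47 lie between 3.34 and 4.56, and Tgtp2, Tgtp1 and Iigp1 reach up to 7.72.

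GM-CSF against M-CSF asks how the growth factor sets the level. At steady state on TC dishes all 7 genes were lower in GM than in M, where 28.9% of all genes tested were lower. The log2 difference was -1.53 ± 0.06 for Irgm1, -1.86 ± 0.06 for Irgm2, -1.96 ± 0.08 for Igtp and -1.74 ± 0.07 for Ifi47, or 2.88-fold to 3.89-fold. It was -3.89 ± 0.12 for Tgtp2 and -4.25 ± 0.33 for Iigp1, or 14.9-fold and 19.1-fold. The adjusted p was at most 5.46e-04, that of Tgtp1 at -2.88 ± 0.65. With all libraries scaled by size alone, all 7 stayed lower on both dishes, while the median of all genes moved to -0.29.

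On noTC dishes, which use none of the 4 libraries with heart muscle genes, 6 of the 7 were lower in GM (30.7% of all genes tested). Irgm1 differed by -1.63 ± 0.05, Irgm2 by -1.69 ± 0.06, Igtp by -1.70 ± 0.07, Ifi47 by -1.72 ± 0.07, Tgtp2 by -3.07 ± 0.10 and Iigp1 by -1.50 ± 0.25. Tgtp1, at -0.75 ± 0.37, did not pass (adjusted p = 0.081), and the summed pair differed by -2.88 ± 0.10. The 4 dendritic cell genes also separated the growth factors, with a summed level of 904 to 1084 CPM in all GM libraries and 15.2 to 59.7 CPM in all M libraries. Most of that sum was Itgax; Ccr7 reached 62.0 CPM, Zbtb46 8.17 and Flt3 0.51, and on noTC dishes Itgax, Ccr7 and Zbtb46 were higher in GM by 4.33 ± 0.07, 5.23 ± 0.23 and 3.65 ± 0.35 on the log2 scale. The 5 neutrophil genes also separated the growth factors, with sums of 5.25 to 22.1 CPM in GM libraries and 0.15 to 1.54 CPM in M libraries. The summed fibroblast genes overlapped between GM and M. The part of these sets in the difference was not tested.

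With LPS the gap remained and was smaller for most of the genes. All 7 were lower in GM-TC-LPS than in M-TC-LPS (32.9% of all genes tested) and in GM-noTC-LPS than in M-noTC-LPS (32.6%), with adjusted p-values of at most 6.46e-12. On TC dishes Irgm1, Irgm2 and Ifi47 differed by -1.06 to -1.02. On noTC dishes Irgm1 differed by -0.92 and Ifi47 by -0.96, and Irgm2 was nearly 2-fold lower. Igtp differed by -1.50 ± 0.05 and -1.23 ± 0.05, Tgtp2 by -1.67 ± 0.06 and -1.81 ± 0.06, and Iigp1 by -2.57 ± 0.09 and -2.67 ± 0.09. Iigp1 was thus 5.93-fold and 6.38-fold lower in GM, the widest gap of the 7 after LPS on either dish.

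**Figure D3:**
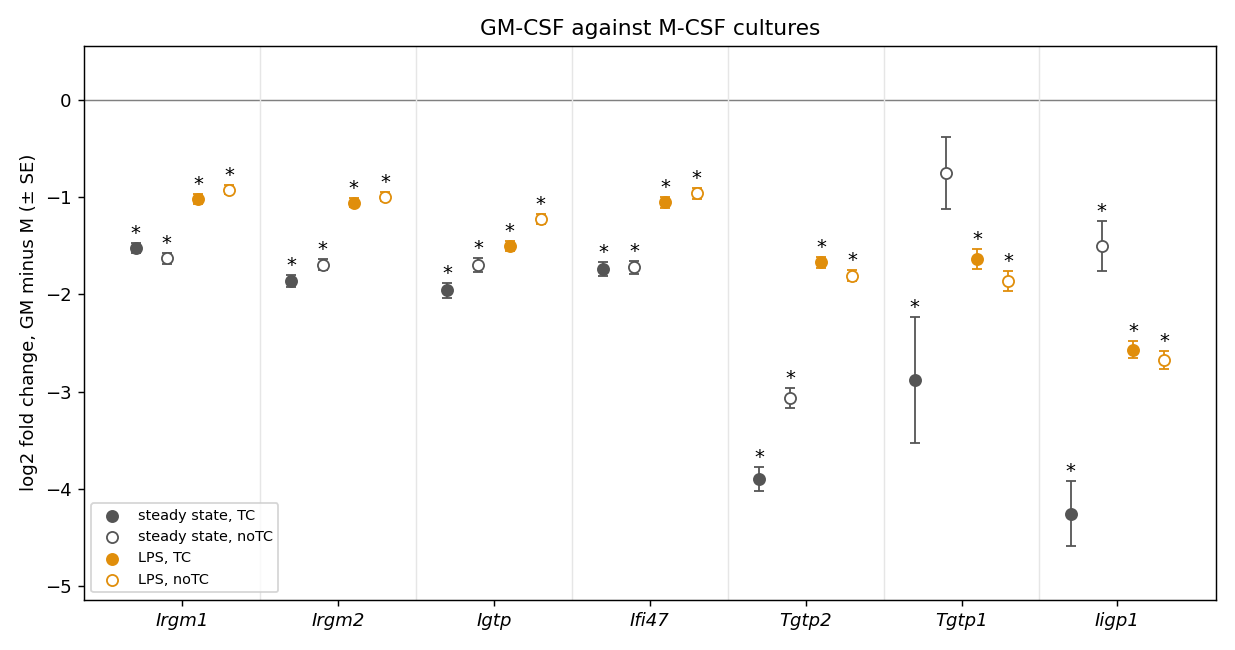
Log2 fold change of GM-CSF against M-CSF cultures with its standard error, at steady state (grey) and with LPS (orange), on TC (filled) and noTC (open) dishes; an asterisk marks an adjusted p under 0.05. All points lie below 0, and for Irgm1, Irgm2, Igtp, Ifi47 and Tgtp2 the LPS values lie nearer to 0 than the steady state values of the same dish.

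Whether LPS acted on the genes differently in the 2 growth factors was tested by an interaction term, taken as the log2 fold change of LPS in GM minus that in M. On TC dishes it was above 0 for 6 of the 7 (17.8% of all genes tested), with 0.50 ± 0.07 for Irgm1, 0.80 ± 0.07 for Irgm2, 0.45 ± 0.09 for Igtp, 0.68 ± 0.09 for Ifi47, 1.69 ± 0.43 for Iigp1 and 2.22 ± 0.15 for Tgtp2. Tgtp1, at 1.25 ± 0.72, did not pass (adjusted p = 0.18). Scaling by library size alone moved the median of all genes in this term to 0.30 on TC and 0.19 on noTC dishes and left the lowest of the 7 on TC at 0.80. On noTC dishes it was above 0 for 5 of the 7 (16.9% of all genes tested), 0.71 ± 0.07 for Irgm1, 0.70 ± 0.07 for Irgm2, 0.47 ± 0.09 for Igtp, 0.76 ± 0.09 for Ifi47 and 1.26 ± 0.12 for Tgtp2. It was below 0 for Iigp1, at -1.17 ± 0.31 (adjusted p = 0.0046), and for Tgtp1, at -1.11 ± 0.42 (adjusted p = 0.042), where 19.3% of all genes were. After the subtraction described with the dishes below, Iigp1 turned to 0.62 (adjusted p = 0.38), and Tgtp1 stayed below 0 and did not pass. The summed Tgtp pair was at 1.07 ± 0.12 (adjusted p = 2.04e-07). Tgtp1 made up 15.1% of that pair in GM-noTC and 3.49% in M-noTC, so the sum follows Tgtp2 and does not give the sign of Tgtp1. Without GM-noTC replicate 1 the term of Iigp1 was -1.02 (adjusted p = 0.073), and that of Tgtp1 lost its call without either library of GM-noTC or M-noTC-LPS, without M-noTC replicate 2 and without GM-noTC-LPS replicate 2, at values between -1.17 and -0.96.

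NoTC against TC dishes asks what the dish surface does. In GM cells at steady state, 3 effectors were higher on noTC, where 4.69% of all genes tested were higher: Tgtp2 by 0.97 ± 0.18 on the log2 scale (adjusted p = 0.0014), Iigp1 by 1.90 ± 0.49 (adjusted p = 0.018) and Tgtp1 by 2.42 ± 0.70 (adjusted p = 0.036). Irgm1, Irgm2, Igtp and Ifi47 did not pass, with values between -0.04 and 0.20. The summed heart muscle genes were at 24.6 to 47.7 CPM in GM-TC and at most 0.85 in GM-noTC, and their part here was not tested. All 3 are at low levels here, Iigp1 with 14 counts over both GM-TC libraries and 61 over both GM-noTC libraries. With LPS none of the 7 passed in GM cells, at values between -0.14 and 0.28 (edgeR, 2.8% of all genes differed in either direction), and DESeq2 called none either; at an unadjusted p under 0.05, edgeR had 2 of the 7.

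A measurement on other genes was set beside these 3. It used 14 other genes that were under 1 CPM in GM-TC and had a mean of 100 CPM or more over 10 other libraries. Those libraries were the ones with LPS and those of M-noTC. In GM-noTC the 14 genes exceeded GM-TC by a median of 0.679% of that average, and 13 of them lay within 1.5-fold of the median. The excess of Iigp1 was 0.653% of its average in the same libraries, that of Tgtp2 0.785%, that of Igtp 0.629% and that of Tgtp1 1.63%. For Ifi47 the excess was 0.164%, for Irgm2 0.021% and for Irgm1 -0.113%, and the subtraction was made for every gene whatever its excess. After 0.679% of that average was subtracted from the GM-noTC libraries, and the matching 0.600% from M-noTC, none of the 7 passed with edgeR (3 had an unadjusted p under 0.05), and Iigp1 was at -0.19 and Tgtp2 at 0.17. DESeq2 was not run on the subtracted counts. The average rests mostly on libraries with LPS, so the subtraction takes more from genes that LPS raises, by construction. The cause of the excess was not tested. The summed Tgtp pair went from 1.11 ± 0.17 (adjusted p = 1.62e-04) to 0.35 ± 0.20 (adjusted p = 0.39). A fit to the 4 libraries alone called 1 of the 7, and leaving out one library at a time called 1 or 2. The call of Iigp1 was lost without GM-noTC replicate 1 and without either GM-TC library, and that of Tgtp1 without either GM-noTC library or GM-TC replicate 2.

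In M cells at steady state the direction was the other one for Iigp1. It was lower on noTC by 0.85 on the log2 scale (SE 0.18, adjusted p = 8.32e-04), or 1.80-fold, and Irgm2 was slightly lower, at -0.17 ± 0.05 (adjusted p = 0.013). Of all genes tested, 11.1% were lower and 16.1% higher on noTC in M cells. Iigp1 kept its call without any one library, whereas Irgm2 lost it without either M-noTC library or without M-TC replicate 2. The subtraction takes counts from noTC libraries only, so it is no test of a gene that is lower there. The summed heart muscle genes reached 65.7 CPM in M-TC and did not exceed 0.34 in M-noTC, without overlap, and the summed dendritic cell genes at 15.2 to 16.7 CPM in M-TC and 47.4 to 47.6 in M-noTC (22.2 to 24.9 and 55.1 to 59.7 with LPS); their part here was not tested.

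With LPS, 4 genes were lower on noTC in M cells by small amounts and 1 was higher. Igtp differed by -0.32 ± 0.05 (adjusted p = 8.62e-05), Ifi47 by -0.23 ± 0.05 (adjusted p = 0.0039), Irgm2 by -0.16 ± 0.05 and Irgm1 by -0.15 ± 0.05, the largest of them 1.25-fold. Tgtp1 was higher by 0.51 ± 0.09 (adjusted p = 3.40e-04), but the summed Tgtp pair was not, at 0.11 ± 0.05 (adjusted p = 0.15). Among all genes tested, 12.9% were lower and 10.4% higher. Scaling by library size alone left 2 of the 5 calls, Igtp and Tgtp1, and leaving out one library of these 2 groups left 2 or 3, the 2 being without M-noTC-LPS replicate 1.

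**Figure D4:**
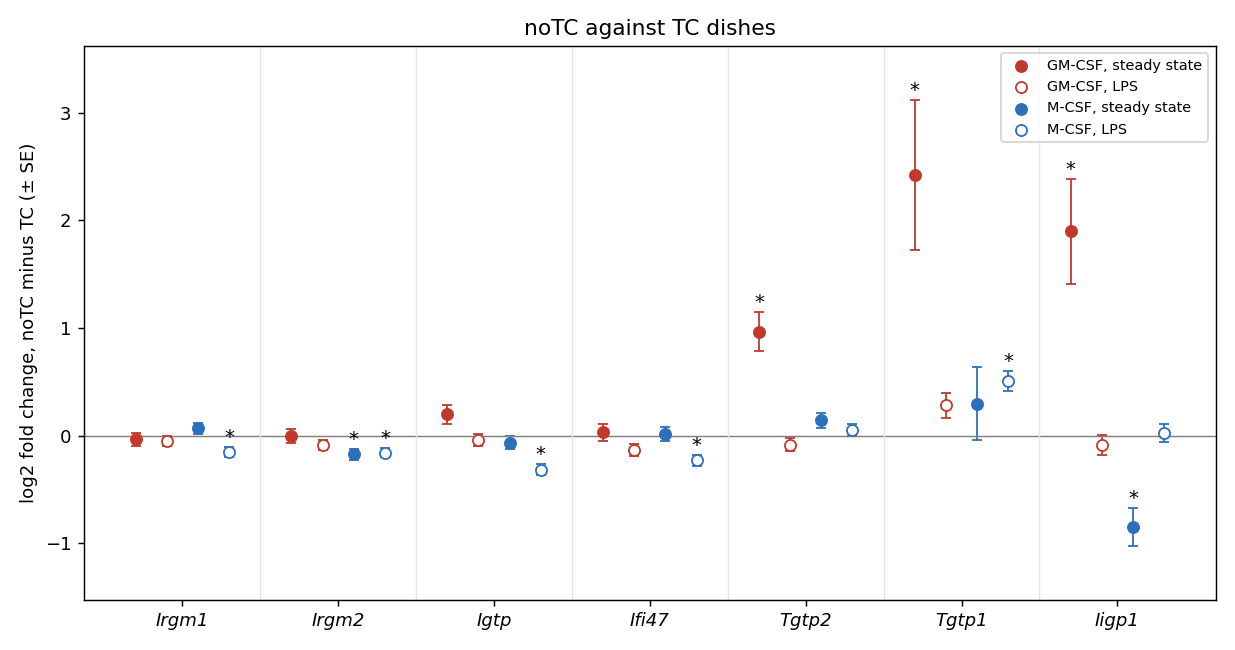
Log2 fold change of noTC against TC dishes with its standard error, for GM-CSF (red) and M-CSF (blue) cultures at steady state (filled) and with LPS (open); an asterisk marks an adjusted p under 0.05. Values past 0.60 in size occur only at steady state, for Tgtp2, Tgtp1 and Iigp1, and Iigp1 is above 0 in GM and below 0 in M.

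Interaction terms that involve the dish passed for 7 pairs of gene and comparison. At steady state the log2 difference of noTC minus TC was higher in GM than in M for Iigp1 and Tgtp2, where 4.82% of all genes were. For Iigp1, at 1.90 in GM and -0.85 in M, the term was 2.75 ± 0.51 (adjusted p = 9.25e-04). For Tgtp2 it was 0.83 ± 0.20 (adjusted p = 0.0078). After the subtraction these terms were 0.96 (adjusted p = 0.52) and 0.08 (adjusted p = 0.90). Tgtp2 also responded less to LPS on noTC than on TC in GM cells, by 1.05 on the log2 scale (SE 0.19, adjusted p = 0.0056; 0.591% of all genes were lower), which was -0.25 (adjusted p = 0.82) after the subtraction. Both terms of Tgtp2 lost their call without GM-noTC replicate 2, at 0.75 (adjusted p = 0.063) and -0.96 (adjusted p = 0.11). In M cells, Iigp1 responded more to LPS on noTC, by 0.87 ± 0.19 (adjusted p = 0.0051; 3.11% of all genes), and Irgm1 and Igtp less, at -0.22 ± 0.07 and -0.25 ± 0.08 (adjusted p = 0.048 and 0.046; 7.48%). Iigp1 lost that call without M-TC replicate 2, at 0.68 (adjusted p = 0.090), and Irgm1 and Igtp lost it whichever of the 8 libraries was left out. With LPS, the effect of noTC on Igtp differed between GM and M by 0.28 ± 0.07 (adjusted p = 0.017; 6.87% of all genes), a call lost without replicate 1 of GM-TC-LPS, GM-noTC-LPS or M-noTC-LPS. With scaling by library size alone, this term of Igtp was 0.17 (adjusted p = 0.15), and the terms of Irgm1 and Igtp in M cells were -0.12 (adjusted p = 0.28) and -0.15 (adjusted p = 0.27).

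The interferon pathway was read from a list of 45 genes, of which 43 passed the expression filter. Ifnb1, the ligand, had 0 to 4 counts in each steady state library and 125 to 316 in each LPS library. With LPS its level in GM cells was 7.24 and 6.36 CPM on TC and 9.33 and 8.85 on noTC dishes, and in M cells 6.15 and 7.26 on TC and 14.4 and 15.8 on noTC dishes. GM and M on TC dishes overlapped, with a log2 difference of 0.02 ± 0.20 (adjusted p = 0.93), in the comparison where all 7 GTPases were lower in GM. The part of Ifnb1 in the difference of the GTPases was not tested. On noTC dishes Ifnb1 was lower in GM, by 0.73 (SE 0.17, adjusted p = 8.74e-04), and in M-LPS cells it was higher on noTC by 1.17 ± 0.18 (adjusted p = 6.29e-05). Of the 4 receptor genes, 3 were lower in GM on TC at steady state, Ifnar1, Ifnar2 and Ifngr1, and Ifngr2 was higher. Of all genes tested, 28.9% were lower and 32.6% higher in that comparison.

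The transcription factors Stat2, Irf9, Irf1, Irf7 and Irf8 were lower in GM-TC than in M-TC at steady state, as the 7 GTPases were. Stat2 and Irf9, subunits of the factor ISGF3, differed by -1.32 ± 0.06 and -1.29 ± 0.08 on the log2 scale, Irf1 by -1.07 ± 0.06 and Irf8 by -0.52 ± 0.06. Irf7, which amplifies type I interferon, was at 3.13 and 4.91 CPM for GM-TC and 68.6 and 78.7 for M-TC, a difference of -4.16 ± 0.13. Irf3, which is activated by phosphorylation, did not pass at -0.09 ± 0.08. With LPS the differences were smaller for Irf1 at -0.47 ± 0.05 and Irf7 at -1.81 ± 0.08, and the interaction passed for both, at 0.60 ± 0.08 and 2.36 ± 0.16.

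Guanylate binding proteins, the other interferon-induced GTPase family that is recruited to pathogen vacuoles, did not share the pattern of the 7 genes at steady state. Of 11 Gbp genes tested, 8 were higher and 2 lower in GM-TC than in M-TC, against 0 higher and 7 lower among the immunity-related GTPases, and on noTC 9 were higher and 1 lower. Of all genes tested, 32.6% were higher on TC and 31.4% on noTC. At steady state on TC dishes Gbp4 differed by 1.73 ± 0.27 and Gbp11 by 4.44 ± 0.59, whereas Gbp9 differed by -2.54 ± 0.12 and Gbp5 by -0.43 ± 0.13. With LPS, 4 of the 11 were higher and 6 lower in GM on either dish, with medians of -0.45, the direction of the 7 genes. Of all genes tested, 32.9% were lower in GM with LPS on TC and 32.6% on noTC. The interaction of growth factor and LPS on TC was below 0 for 7 of the 11 Gbp genes and above 0 for none, while it was above 0 for 6 of the 7 genes described here; it was below 0 for 23.3% of all genes tested. Both families rose with LPS, 9 of 11 Gbp genes in each of the TC cultures, where 32.8% of all genes tested rose in GM and 37.6% in M. The difference between the families as such was not tested, and the counts are a description.

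Of the inhibitors of this signalling, Socs1 and Socs3 were higher in GM-TC than in M-TC at steady state, by 2.43 ± 0.19 and 3.17 ± 0.10. With LPS all 4 inhibitors were lower in GM on either dish, where 32.9% of all genes tested were lower on TC and 32.6% on noTC. Usp18, which blocks the type I receptor, was lower in GM-TC at steady state, as the 7 GTPases were. Among the 11 genes of the conjugation of Atg8 proteins, which the effectors need to be loaded correctly on vacuoles, 8 were higher and 1 lower in GM-TC than in M-TC. Of all genes tested, 32.6% were higher there and 28.9% lower. Of the 11 Atg8 conjugation genes, 5 rose and 5 fell with LPS in M-TC, the median change being 0.04 as log2, where 37.6% of all genes tested rose and 36.4% fell. Trim21, one of the 2 ubiquitin ligases listed, was lower in GM-TC and Traf6 higher.

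Further immunity-related GTPase genes were tested where the table held them, 9 of 19 listed symbols. With LPS, 8 of the 9 rose in GM-TC (32.8% of all genes tested) and 7 in M-TC (37.6%), where 1, Irgq, fell. Gm5431, 9930111J21Rik1, 9930111J21Rik2 and Gm12185, which lie among Irgm1, Tgtp1, Tgtp2 and Ifi47 on chromosome 11, rose with LPS in all 4 cultures and were lower in GM than in M at steady state, by 1.26 to 1.80 on the log2 scale on TC dishes. Gm12185 shares exons with Tgtp1, so part of its reads may belong there. Gm4951 and F830016B08Rik, on chromosome 18 with Iigp1, went the other way between the growth factors. Gm4951 was at 7.98 and 7.01 CPM for GM-TC and 3.11 and 2.92 for M-TC, higher in GM by 1.31 ± 0.19 (adjusted p = 4.83e-06) and on noTC by 1.10 ± 0.19, while it rose with LPS in both, by 3.45 ± 0.13 and 3.84 ± 0.15 on TC. F830016B08Rik was higher in GM-TC by 3.27 ± 0.39. Gm4841 had the direction of Iigp1 with LPS, at 0.47 and 0.51 CPM for GM-TC-LPS and 2.80 and 2.32 for M-TC-LPS, and was near the floor at steady state. Irgc1, also at low levels, was at 0.76 and 0.72 CPM for GM-TC and at 0 and 0.04 for M-TC. Irgq, a relative not known to be induced by interferon, changed little with LPS, by 0.43 ± 0.07 in GM-TC and -0.23 ± 0.08 in M-TC.

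Among themselves the 7 genes formed a close group and a spread one. On log2 CPM averaged per group and centred over the 8 groups, the root mean square distance was 0.10 between Irgm1 and Irgm2, 0.13 between Irgm2 and Ifi47 and 0.16 between Igtp and Ifi47, so that Ifi47 lay with the regulators. Iigp1 lay 0.64 from Tgtp1 and 1.62 from Irgm1, the greatest distance of the 21 pairs. Outside the listed genes, those nearest to the mean profile were Olfr56, Trim30b, Phf11a, Slfn8, Usp18, Ifi211, Ifi206, Il17rd, Il15 and Clec4e, at distances of 0.28 to 0.42. Olfr56 shares exons with Ifi47 in the annotation, so its counts may hold reads of that gene. Ranked by Pearson correlation instead, Phf11a and Trim30b were the 2 of these 10 that were named again; both rankings rest on 8 group means and are descriptions.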

How the data were processed

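Clean reads were aligned with HISAT2 and quantified with RSEM by the authors, and the deposited table holds expected counts per gene without normalization. Genome build and annotation release are not given in the sources used here; the submitters' processing notes also name fastp 0.18.0, Bowtie2 2.2.8 and StringTie 1.3.1. Values that were not whole, 6.56% to 8.19% of the genes per library, were rounded. Groups came from the sample labels, and all 16 libraries were used.

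Of 16756 genes with a count, 12514 passed filterByExpr with the groups given, and TMM factors scaled the libraries. The quasi-likelihood model of edgeR 4.0.16 (R 4.3.3) had a term for each of the 8 groups and no replicate block, and 18 contrasts were taken from it. Calls used a Benjamini-Hochberg adjusted p under 0.05 over all genes tested. Log2 CPM for profiles used a prior count of 2. The fit was tested on simulated data. Alternatives were DESeq2's size factors, library size only, no filter, a fit to the libraries of the comparison, DESeq2 1.42.0, a replicate block, a rule of fold above 2 with an unadjusted p under 0.05, the Tgtp pair summed, a subtraction of other libraries' counts from the noTC steady state libraries, and leaving out each library. With 2 against 2, the smallest p of an exact permutation test is 0.333.

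The genes, the pathway and marker lists, the tests and the alternatives were chosen with earlier results of these data known. The text names all 7 genes, listed pathway genes of the roles it describes (1 is not reported here) and the 10 genes of nearest profile. Single examples among the Gbp genes, inhibitors and ubiquitin ligases were chosen after their values were seen. Promoters came from RefSeq (GRCm38.p6), with 6 of 7 symbols matched. Transcripts and exon lengths came from GENCODE M21, which held 22253 of the 22287 gene IDs. Protein sequences were not used here.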

Additional observations from a re-analysis of the deposited data

Results flagged for a closer look

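In 20 pairs of gene and comparison the interaction term passed at an adjusted p under 0.05 (edgeR's quasi-likelihood test), so that the same contrast differed between 2 groups. Of all genes tested, between 0.591% and 19.3% passed in the directions of these terms, depending on the comparison. The response to LPS on TC dishes was larger in GM than in M for Irgm1 by 0.50 on the log2 scale, Irgm2 by 0.80, Igtp by 0.45, Ifi47 by 0.68, Iigp1 by 1.69 and Tgtp2 by 2.22. On noTC dishes it was larger in GM for Irgm1 by 0.71, Irgm2 by 0.70, Igtp by 0.47, Ifi47 by 0.76 and Tgtp2 by 1.26, and the terms of Iigp1 and Tgtp1 were -1.17 and -1.11; after the subtraction from the noTC libraries these 2 were 0.62 and -0.74 and did not pass (adjusted p = 0.38 and 0.27).

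In GM cells the response of Tgtp2 to LPS was smaller on noTC, with a term of -1.05, or -0.25 after the subtraction (adjusted p = 0.82). In M cells the response was larger on noTC for Iigp1, at 0.87, and smaller for Irgm1 and Igtp, at -0.22 and -0.25. After the subtraction the last 2 were -0.19 and -0.21 and did not pass (adjusted p = 0.10 and 0.11). They did not pass with scaling by library size alone either. The log2 difference of noTC minus TC at steady state was higher in GM than in M for Iigp1, by 2.75, and Tgtp2, by 0.83. Neither passed after the subtraction, at 0.96 (adjusted p = 0.52) and 0.08 (adjusted p = 0.90). With LPS this difference was -0.04 in GM and -0.32 in M for Igtp, a term of 0.28. That term did not pass with scaling by library size alone.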

How the results depend on the processing

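With 2 libraries per group, small differences rest on few degrees of freedom, and Iigp1 and Tgtp1 had at most 32 counts in each GM library at steady state. In the 4 LPS comparisons 7 of 7 genes were called under every setting tried (6 of 6 with the Tgtp pair summed), as for GM against M on TC dishes with and without LPS; the number stayed at 6 or 7 on noTC dishes at steady state. The rule of fold above 2 with an unadjusted p called 4 genes for GM against M on noTC dishes with LPS, 2 and 3 for growth factor by LPS on TC and noTC, 0 for the dish in M cells with or without LPS, 3 for dish by LPS in GM, 0 for dish by LPS in M and 0 for dish by growth factor with LPS. With library size only, 2 genes were called for the dish in M-LPS cells and 1 for dish by LPS in M, and the median of all genes in the growth factor by LPS terms moved to 0.30 on TC and 0.19 on noTC. A fit to the libraries of the comparison called 1 gene for the dish in GM cells and 2 for dish by LPS in GM, where no filter and DESeq2 also called 2.

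The subtraction called 0 for the dish in GM cells, for dish by LPS in GM and for dish by growth factor, and 1 for dish by LPS in M. It turned Iigp1 to -0.19 for the dish in GM cells and to 0.62 for growth factor by LPS on noTC. The latter term was 1.07 for the summed Tgtp pair, which is mostly Tgtp2 and does not give the sign of Tgtp1. Leaving out one library at a time gave 1 to 2 calls for the dish in GM, 1 to 2 in M and 2 to 3 in M-LPS, 0 to 2 for dish by LPS in GM, 0 to 2 in M, 1 to 3 for dish by growth factor and 0 to 1 with LPS; a group left with 1 library was assumed to vary like the others. Without GM-TC replicate 1 the growth factor by LPS term of Tgtp1 on TC was 5.44, set against a library with no count. Deviations of same-numbered libraries correlated between -0.064 and 0.020, which shows no pairing in expression, and with the replicate block 2 genes were called for dish by LPS in GM and no other count of calls moved by over 1.5 times. By Pearson correlation, 2 of the 10 genes of nearest profile were named again. The cause of these changes was not tested.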
